A study of Caenorhabditis elegans with 2 samples.

Results

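Described here are 243 genomic regions from a chromatin immunoprecipitation sequencing (ChIP-seq) study of NHR-12 in Caenorhabditis elegans. These regions lay below the deposited peak threshold and were nevertheless ranked high in both replicates. They were chosen by measured values. Candidate regions called on the pooled replicates were ordered by the authors' signal, those of ranks 250 to 2500 that overlap no thresholded peak were kept, and each had to overlap by at least 1 bp a region among the best 2500 by signal in each replicate. This left 243 of 28574 pooled candidates, and they are called sub-threshold regions below. They are set beside the 249 thresholded peaks, beside the 1988 other candidates of the same rank range without a peak, and beside all 28039 candidates that are neither a sub-threshold region nor overlap a peak. The series holds 1 group with 2 replicates and no second condition. The worms were of strain OP318, which carries unc-119(ed3) III and the insertion wgIs318 that targets nhr-12, and NHR-12 was tagged with enhanced green fluorescent protein. The material was whole embryos of mixed stage and mixed sex (pooled male and female), with a labelled fragment size of 150 to 350 bp. All cells of the embryo were pooled, so a region cannot be tied to a cell type, and 1 line carrying an added transgene was used. The labelled control was not analysed here. Nothing in the sources used here states what was separate about the 2 replicates. The depth is unknown, because the lists give no read counts.

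NHR-12 belongs to the nuclear hormone receptor family, zinc-finger transcription factors, a family that is strongly expanded in nematodes. In ChIP-seq, DNA bound by the tagged protein is enriched and sequenced, and a peak caller scores each enriched region against a control. The irreproducible discovery rate (IDR) sets a threshold by how well ranked regions recur between replicates, so regions below it can still recur. Worm promoters are short, and regions occupied by many factors at once often lie close upstream of active genes and at tRNA and snoRNA genes.

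The sequences below are the summit base with 50 bases on each side, given 5′ to 3′ on the plus strand of ce11, from the RefSeq copy of the assembly. The first 6 are among the sub-threshold regions with the largest pooled signal. Their GC content ran from 48.5 to 57.4%, above the median of 45.5% over the same window in all sub-threshold regions, so they do not stand for the whole set. Regions of similar rank at bag-1 and in ech-1.2 had 38.3% and 37.3% within 100 bp of the summit. Each is named by its nearest annotated gene start.
K02F3.13 (chrIII:835924-836024): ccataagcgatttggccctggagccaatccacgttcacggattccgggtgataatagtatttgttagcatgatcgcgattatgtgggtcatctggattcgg
ZK816.9 (chrX:3348029-3348129): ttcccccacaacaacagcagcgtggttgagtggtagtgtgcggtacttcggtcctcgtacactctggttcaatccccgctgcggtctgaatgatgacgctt
cel-mir-2215 (chrII:13335305-13335405): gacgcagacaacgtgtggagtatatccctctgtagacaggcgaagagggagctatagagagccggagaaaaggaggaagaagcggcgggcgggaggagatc
Y51H4A.939 (chrIV:16494350-16494450): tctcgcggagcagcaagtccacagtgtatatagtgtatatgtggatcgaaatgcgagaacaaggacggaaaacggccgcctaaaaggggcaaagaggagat
R10D12.13 (chrV:13962180-13962280): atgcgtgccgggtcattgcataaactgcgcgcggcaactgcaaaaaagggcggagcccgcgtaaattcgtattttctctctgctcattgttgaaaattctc
miz-1 (chrIV:10817050-10817150): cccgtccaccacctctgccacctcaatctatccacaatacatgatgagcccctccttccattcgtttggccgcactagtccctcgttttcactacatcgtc
The next pair holds the letters CTGCGTCT, or AGACGCAG where the match is on the other strand, which are in capitals. These letters were in 9.47% of the sub-threshold regions. The first of the pair has a copy on each strand, and the second lies in an intron of skn-1.
F42A8.4 (chrII:9356917-9357017): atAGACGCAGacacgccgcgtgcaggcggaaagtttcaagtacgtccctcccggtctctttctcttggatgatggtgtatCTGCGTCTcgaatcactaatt
T19E7.26 (chrIV:5657256-5657356): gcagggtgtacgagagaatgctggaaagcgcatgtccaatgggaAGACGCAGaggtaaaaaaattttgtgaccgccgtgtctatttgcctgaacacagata
The following pair has, in capitals, the letters GTTCGANNC, the core of the B box of tRNA promoters. The first lies by the annotated snoRNA gene F32E10.10 and the second in the tRNA gene WBGene00023040.
F32E10.10 (chrIV:7574027-7574127): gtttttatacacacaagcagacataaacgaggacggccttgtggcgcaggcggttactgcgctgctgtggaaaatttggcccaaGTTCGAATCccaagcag
WBGene00023040 (chrX:8386195-8386295): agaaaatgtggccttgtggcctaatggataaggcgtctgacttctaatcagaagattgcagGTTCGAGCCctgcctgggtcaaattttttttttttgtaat
The last pair comes from the regions whose worse rank over the 2 replicates was best. No capitals are used in them or in the first 6.
C30E1.9 (chrX:16930019-16930119): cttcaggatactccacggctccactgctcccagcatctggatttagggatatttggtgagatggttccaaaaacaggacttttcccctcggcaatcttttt
pot-3 (chrIII:13780512-13780612): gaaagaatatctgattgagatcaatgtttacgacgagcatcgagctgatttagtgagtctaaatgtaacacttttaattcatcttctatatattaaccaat

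The selection kept few candidates. Of the 2251 pooled candidates of ranks 250 to 2500, 20 overlapped a thresholded peak, and 243 of the remaining 2231 overlapped one of the best 2500 regions of both replicates. Another 788 did so in replicate 1 only, 553 in replicate 2 only, and 647 in neither. Over all pooled candidates, 2.09% (598 of 28574) overlapped one of the best 2500 regions of both replicates, thresholded peaks included. Of the thresholded peaks, 230 of 249 did. These counts come from the rule itself.

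The caller's signal has no stated scale, so its size is not compared between lists. Pooled signal ran from 16.8 to 30.6 in the sub-threshold regions, with a median of 24.2, and from 30.7 to 113 in the thresholded peaks, with a median of 39.2. Directly above the threshold stood the peaks nearest to Y54G11A.2, T23F11.9 and siah-1, at ranks 247, 248 and 249 and signals of 30.79, 30.77 and 30.75. Directly below it, the candidates at bag-1 (rank 250, signal 30.6) and K02F3.13 (rank 251, signal 30.5) were sub-threshold regions. The candidate at hel-1, rank 252, was not, because its best overlapping region ranked 7312 in replicate 2, although it ranked 568 in replicate 1. Nor was that at T19F4.6, rank 253, which ranked 187 in replicate 2 but 2687 in replicate 1. Of the 243 regions, 122 had pooled ranks 250 to 500 and 23 had ranks 1501 to 2500. The −log10 of the deposited q-value had a median of 1.18 in the sub-threshold regions, from 0.41 to 2.24. It was at least 2 in 9 of the 243 and at least 1 in 158. In the thresholded peaks the median was 2.61.

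In the single replicates, the best overlapping region of a sub-threshold region ranked 82 to 2443 in replicate 1, with a median of 913, and 70 to 2497 in replicate 2, with a median of 979. The ranks were better in replicate 1 for 129 regions and in replicate 2 for 114. Only 6 of the 243 stood among the best 249 regions of both replicates, against 100 of the 249 thresholded peaks. Within the best 249 of a single replicate were 24 in replicate 1 and 28 in replicate 2. Both sets were chosen on signal and rank, so these counts follow in part from the selection. Within the range that the rule allows, the ranks of the 2 replicates had a Spearman rho of 0.0389 over the 243 regions, which share libraries and are given as a description. The summits of the 2 replicate regions lay apart by a median with an exact 95% interval of 82 to 128 bp for the sub-threshold regions, and by a median of 35 bp for 248 thresholded peaks with a region in both (26 to 46 bp). They were within 100 bp of each other in 49.8% of the sub-threshold regions and 83.1% of the thresholded peaks. The rule itself bounds this distance, since both regions must overlap the same candidate.

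**Figure D1:**
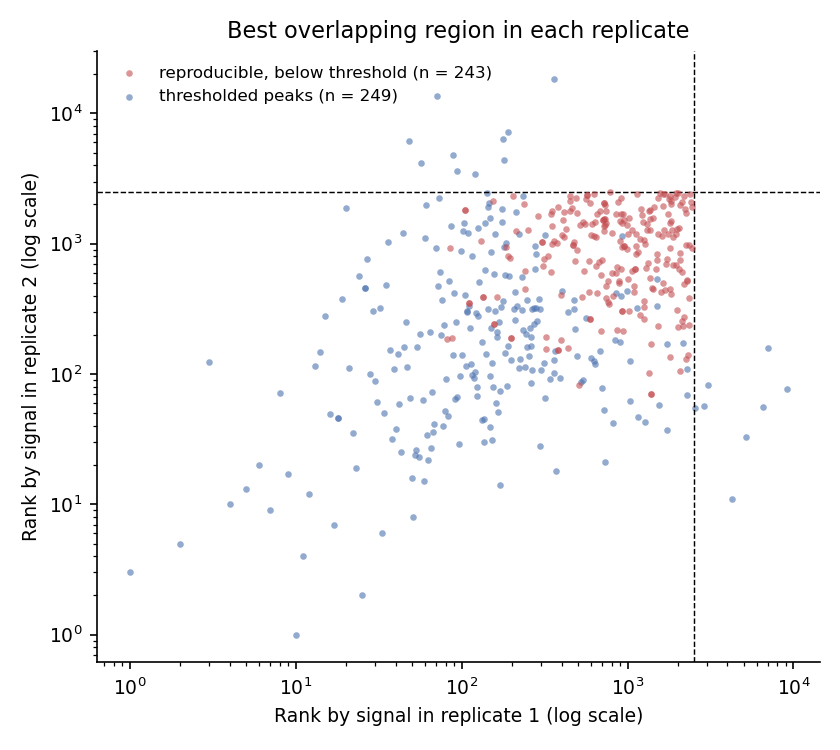
Rank of the best overlapping region in replicate 1 (x axis) and replicate 2 (y axis), both on log scales, for the 243 sub-threshold regions (red) and the thresholded peaks that have a region in both replicates (blue, 248 of 249). Dashed lines mark rank 2500, the limit of the rule, and the red points fill the corner below that limit, from rank 82 in replicate 1 and rank 70 in replicate 2, without a diagonal trend.

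The 243 regions are not all separate loci. There were 16 overlaps between neighbouring regions, and joining the overlapping regions left 227 loci. In 15 pairs both regions matched the same region in each replicate, as at F59C6.15 and F59C6.19, skn-1, hcf-1, hmr-1 and Y48B6A.18. Of their summits, 2 were within 1000 bp of a peak summit, 20 within 5000 bp, and the median distance was 121931 bp. The rule left out candidates that overlap a peak, and the same distances are not given for the other candidates. Whether sub-threshold regions lay nearer to peaks or farther from them than other candidates was therefore not examined.

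The regions that ranked best in both replicates were led by a candidate of modest pooled signal. At C30E1.9, a non-coding RNA gene on chromosome X, the signal was 26.9 in replicate 1 (rank 82) and 17.2 in replicate 2 (rank 185), while the pooled candidate had rank 1117 (signal 19.97). Its summit lay 155 bp inside the gene. At pot-3, whose family binds the single-stranded DNA of telomeres, a coding exon held a summit at 347 bp from the start (chrIII:13780384-13780739), with rank 87 in replicate 1 and rank 188 in replicate 2. An intron of lsy-22, a gene of left-right neuronal asymmetry, held 2 overlapping regions matched by ranks of 199 in replicate 1 and 190 in replicate 2. The pooled ranks of these 2 were 272 and 2443, the second being the lowest of all sub-threshold regions. By hmg-1.1, a high mobility group gene, the regions nearest to Y48B6A.18 had replicate ranks of 156 and 242. The region 117 bp upstream of Y34B4A.2, in an intron of rga-8, had ranks of 321 and 194. Upstream of fib-1, which encodes fibrillarin, the methyltransferase of box C/D snoRNPs, and of the divergent gene mut-15, which acts in small RNA silencing, the ranks were 322 in replicate 1 and 155 in replicate 2. An intron of skn-1, which encodes the Nrf-like factor that specifies endomesoderm in the early embryo, held 2 overlapping regions matched by ranks of 110 and 349. The pooled ranks at skn-1 were 340 (signal 26.9) and 1213 (signal 19.6).

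The regions with the largest pooled signal lay at genes of varied function. At bag-1, a co-chaperone of Hsp70, the summit was 136 bp upstream of the start (chrI:6564409-6564764), with a signal of 13.4 in replicate 1 and 15.5 in replicate 2. At ints-8, a subunit of the Integrator complex that processes snRNA, it was 2 bp upstream of the start, with signals of 18.0 and 12.7. Others lay 44 bp upstream of ragc-1, a Rag GTPase of the TORC1 pathway (signal 29.5 pooled), 81 bp upstream of flap-1 (29.2) and 69 bp upstream of Y7A9D.1 (28.8). One summit lay 187 bp upstream of R10D12.13 and 253 bp upstream of algn-13, a gene of N-linked glycosylation (29.99). At ndua-1 the summit was 266 bp upstream (28.3). The elongation factor gene eef-2 had 2 separate regions. The first lay in its coding exon, 1739 bp from the start (rank 259, signal 30.1), and the second 40 bp upstream of the start (rank 483, signal 24.4).

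Several of the same 25 regions lay at non-coding genes. The snoRNA gene R12E2.17, nested in an intron of the proteasome subunit gene rpn-8, had a summit 72 bp upstream (signal 30.3). The snoRNA gene F59C6.15 had one 39 bp upstream (30.1), its replicate 1 signal being 23.02 and its replicate 2 signal 14.4, and the neighbouring ncRNA gene F59C6.19 had a summit 7 bp inside it (28.5). Summits lay 34 bp inside the ncRNA gene ZK816.9 (30.4), 10 bp inside T28D6.15 in an intron of the alpha-tubulin gene tba-7 (29.1), 26 bp upstream of F57C7.8 (28.3) and 326 bp upstream of ZC64.13 in an intron of the POU homeobox gene ceh-18 (29.6). Farther from their nearest starts were the summits at mir-2215 (1528 bp), Y51H4A.939 (1828 bp), Y48B6A.23 (1484 bp), F27D4.10 (3256 bp) and K02F3.13 (1082 bp). That at K02F3.13 lay in a coding exon of dos-3, a Notch ligand-like gene. Summits in introns of ech-1.2, miz-1, ipla-3 and pqn-65 were 219, 4701, 215 and 2670 bp from the starts of those genes, and that at hmr-1 was 2739 bp upstream.

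Fewer summits of sub-threshold regions than of thresholded peaks lay at gene starts. A start window, reaching 1000 bp upstream and 200 bp downstream of each gene's annotated start, held 147 of 243 sub-threshold summits (60.5%, exact Clopper-Pearson 95% interval 54.0 to 66.7%) and 195 of 249 peak summits (78.3%, 72.7 to 83.3%). Of all other candidates, 38.2% were in such a window. Starts of protein-coding genes alone took 91 sub-threshold summits (37.4%) and 134 peak summits (53.8%), against 24.7% of all other candidates. Windows holding coding starts on both strands took 9.88% of sub-threshold regions, 20.5% of peaks and 3.17% of all other candidates. Sub-threshold summits lay a median of 1066 bp from the closest protein-coding start (763 to 1317 bp), thresholded peaks 545 bp (414 to 853 bp) and all other candidates 1465 bp. On these measures sub-threshold regions stood between the peaks and all other candidates. The other candidates of the same rank range were closer to them, with 47.4% in a start window and 31.2% at coding starts. They had 6.14% with coding starts on both strands and a median distance of 1266 bp. Only for the start window of any gene were the intervals of sub-threshold regions and these candidates apart. Intervals cover the counting of regions only, and regions are not replicates. No test was run over them, since the regions were selected on signal.

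**Figure D2:**
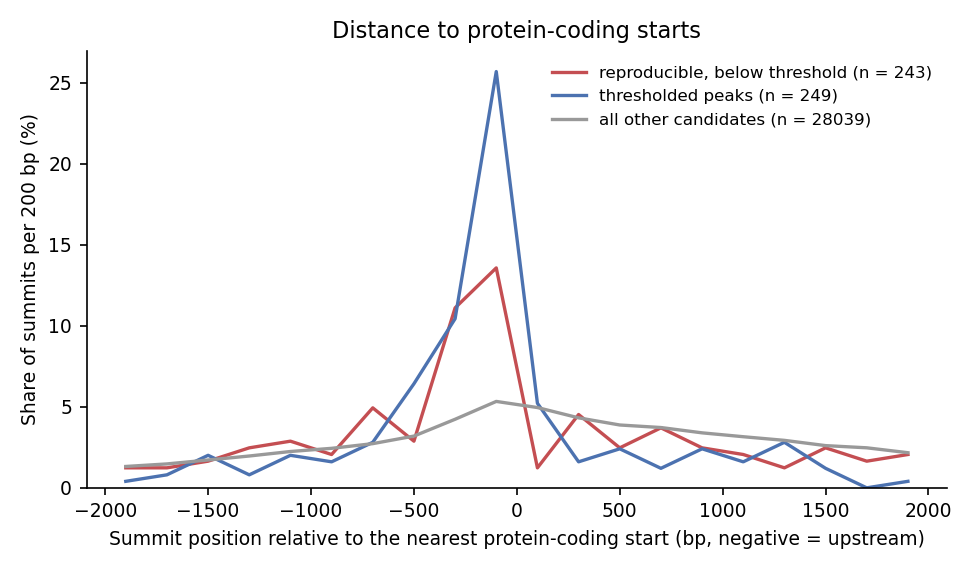
Share of summits per 200 bp (y axis, %) by position relative to the nearest protein-coding start (x axis, bp, negative upstream), for sub-threshold regions (red), thresholded peaks (blue) and all other candidates (grey). The red curve has its highest point in the 200 bp upstream of the start, as the blue one does, at a lower height, and the grey curve shows only a low hump there.

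Coding exons were the class in which sub-threshold regions and thresholded peaks differed most in proportion. Coding exons held 35 of 243 sub-threshold summits (14.4%, 10.2 to 19.5%) and 5 of 249 peak summits (2.01%, 0.655 to 4.62%), with intervals that did not overlap, and 28.8% of the summits of all other candidates. Outside protein-coding genes and small RNA genes lay 130 sub-threshold summits (53.5%) and 156 peak summits (62.7%), against 34.8% of all other candidates. Introns held 64 sub-threshold summits (26.3%) and 55 peak summits (22.1%), and the intervals of these shares overlapped. They held 30.5% of the summits of all other candidates and 25.5% of those of the same rank range. Bodies of small RNA genes held 10 sub-threshold summits (4.12%) and 25 peak summits (10.04%), against 0.453% of all other candidates. In the other candidates of the same rank range, coding exons held 26.2% of summits and small RNA gene bodies 1.46%. Outside protein-coding genes and small RNA genes lay 41.1% of theirs. The 5′ UTR held 3 sub-threshold summits (1.23%) and 6 peak summits (2.41%), against 1.87% of all other candidates. The 3′ UTR held 1 sub-threshold summit (0.412%) and 2 peak summits (0.803%), against 3.62%.

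**Figure D3:**
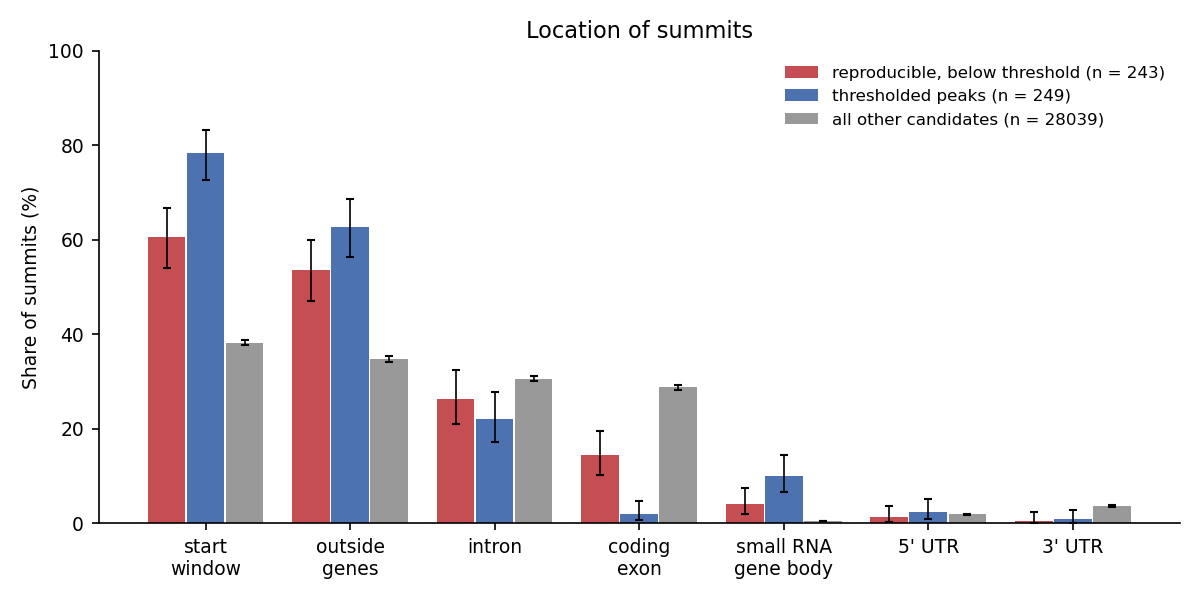
Share of summits (y axis, %) in a start window and in each annotation class (x axis) for sub-threshold regions (red), thresholded peaks (blue) and all other candidates (grey), with exact 95% intervals as error bars. Coding exons held 14.4% of sub-threshold summits, 2.01% of peak summits and 28.8% of the others. The class outside genes means outside protein-coding genes and small RNA genes, and it can hold summits in other ncRNA genes.

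The 35 coding-exon regions came from 34 genes, and 11 of them also lay in the start window of some gene. Among the hosts were genes of broad use in the cell. The linker histone gene hil-5 (signal 26.1), the ribosomal protein gene rpl-26 (25.2), the translation initiation factor gene eif-1.A (18.3) and the pyruvate kinase gene pyk-2 (17.5) each held 1. In hcf-1, the worm homologue of host cell factor, 2 overlapping regions matched the same region in each replicate, at ranks 952 and 969. Further hosts were unc-44, an ankyrin of neurons (signal 27.5), hpk-1, a homeodomain-interacting protein kinase (25.8), casc-3, a core component of the exon junction complex (23.8), and egl-4, a cGMP-dependent protein kinase (21.8). Coding-exon regions of hil-5 and eif-1.A lay 776 bp upstream of rnt-1, the worm Runx factor, and 777 bp upstream of srw-95. The hosts beyond dos-3, eef-2, pot-3 and nhr-119 were named after their values were seen.

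The coding-exon hosts included 2 nuclear hormone receptor genes, nhr-91 at rank 450 (signal 24.97) and nhr-119 at rank 2423 (signal 16.8). In the start windows of such genes the count was 0 sub-threshold regions, of 84 receptor genes with any candidate there, and 2 had a thresholded peak. Neither nhr-12 itself nor unc-119 had a pooled candidate in its start window.

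The 64 intronic regions came from 57 genes, and 24 of them lay in the start window of some gene, 5 of these in that of a protein-coding gene. The hosts described next were chosen after their values were seen. The cadherin gene hmr-1 held summits in introns at ranks 304 and 746, beside 2 overlapping regions 2739 and 2974 bp upstream of its start (ranks 273 and 454). An intron of dlg-1, a scaffold of the apical junction, held a summit with a signal of 23.1 in replicate 1 (rank 130) and 11.7 in replicate 2 (rank 1052). An intron of ajm-1, another component of that junction, held one with signals of 16.0 and 10.5, and an intron of magi-1 one with 14.6 and 14.7. The period homologue lin-42 (rank 409), the chromatin remodelling gene let-526 (rank 309) and din-1, a corepressor that works with the nuclear receptor DAF-12 (rank 646), also had intronic summits.

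The start windows of 259 genes held a sub-threshold summit, which was 1.73% of the 14976 genes with a candidate there, and those of 373 genes (2.49%) held a peak summit. The genes in both sets were mir-56 and T04C10.8. The rule itself limits such sharing, since sub-threshold regions overlap no peak. At mir-56 the sub-threshold summit lay 773 bp upstream (signal 27.6) and the peak summit 161 bp downstream of the start (signal 31.7), beyond the 97 bp gene. At T04C10.8 they lay 803 bp upstream (24.6) and 78 bp inside (41.0). Since neighbouring genes share a window, several genes can be counted through 1 region, and a gene with several is counted by that of largest signal.

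The share with a sub-threshold summit was above the 1.73% of all genes among tRNA, snoRNA, snRNA and miRNA genes and below it, at 0.151%, among piRNA genes. Among tRNA genes 18 of 363 (4.96%) had a sub-threshold summit in the window, through 14 regions, and 27 had a peak. The largest signals were at WBGene00014634 (27.6; 94 bp downstream of the start and beyond the 72 bp gene), WBGene00023160 (27.6; 10 bp upstream) and WBGene00014275 (27.4; 13 bp upstream). Among snoRNA genes, whose products guide modification of ribosomal RNA, 20 of 203 (9.85%) had a sub-threshold summit and 29 a peak. After R12E2.17 and F59C6.15, the largest signal was at F32E10.10 (27.6; 45 bp upstream). Among snRNA genes 4 of 58 had a sub-threshold summit and 7 a peak. There were 3 regions behind them. One (26.2) lay in a coding exon of W09D6.5, 176 bp downstream of the start of sls-2.14 and beyond that 112 bp gene. It was 663 bp upstream of sls-2.15. Another lay 104 bp inside C47F8.9 (23.3). The last lay 195 bp downstream of the start of sup-6 (22.5), beyond that 165 bp gene. Among the many piRNA genes 5 of 3315 had a sub-threshold summit, at 3 regions, led by 21ur-13014 (29.2) and the pair 21ur-1139 and 21ur-8844 (28.8), and 11 had a peak.

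Among biotypes with 10 or more genes hit, miRNA genes were the only one in which more genes had a sub-threshold summit than a peak, with overlapping intervals of the 2 shares. Of 137 miRNA genes with a candidate in the window, 14 (10.2%) had a sub-threshold summit and 7 a peak. Taking each gene's region of largest signal, these 14 genes rested on 5 regions, so the count of genes is not a count of sites. One region lay at the start of the mir-35 to mir-41 cluster, miRNAs that are abundant in early embryos and needed for embryonic viability. Its summit was 69 bp inside mir-35 and 36 bp upstream of mir-36 (rank 406), with signals of 25.1 in replicate 1 (rank 105) and 10.4 in replicate 2 (rank 1826). A second candidate within that cluster, at mir-38 (rank 691), matched the same replicate regions. The other regions were at mir-54, mir-55 and mir-56 (signal 27.6), mir-8190 (27.7), mir-8209 (20.9), and mir-43 and mir-44 (16.8). Within 50 bp of a miRNA gene lay 4 sub-threshold summits (1.65%) and 1 peak summit (0.402%), against 0.0999% of all other candidates. Within 50 bp of a tRNA gene lay 11 sub-threshold summits (4.53%) and 24 peak summits (9.64%), against 0.531% of all other candidates. Within 50 bp of a snoRNA gene lay 7 sub-threshold summits (2.88%) and 13 peak summits (5.22%), against 0.203% of all other candidates. In the other candidates of the same rank range the shares were 0.201% for miRNA, 2.16% for tRNA and 1.06% for snoRNA genes.

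Other ncRNA genes had a sub-threshold summit in 83 of 3216 cases (2.58%) and a peak in 99. Of pseudogenes 2 of 452 had a sub-threshold summit, WBGene00014309 (26.5) and WBGene00044040 (25.9), and 1 a peak. ZK593.11 (17.5) was the only antisense RNA gene with a sub-threshold summit, of 32 with a candidate, and no peak was at one. The counts were 0 of 59 lincRNA genes, 3 of which had a peak, and 0 of 3 rRNA genes.

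Protein-coding genes had a sub-threshold summit in 112 of 7138 cases (1.57%), through 87 regions, and a peak in 189 (2.65%). Lists of genes by function, drawn up by symbol prefix, each held few. Such lists miss genes of the same function under another symbol, so their counts cover the symbols listed only. Of 68 cytoplasmic ribosomal protein genes with a candidate, 4 had a sub-threshold summit and 11 a peak. The 4 were rpl-20 (signal 27.6; 282 bp upstream), rpl-7A (24.6; 61 bp upstream), rpl-7 (23.8; 295 bp upstream) and rps-13 (18.2; 336 bp upstream). Of 28 core histone genes, 1 had a sub-threshold summit, his-42 (23.3, 690 bp upstream), and 9 had a peak. The summit counted for his-42 lay 104 bp inside the snRNA gene C47F8.9. Of 31 chaperone genes with the symbols hsp-, dnj-, cct-, hip- or daf-21, 1 had a sub-threshold summit, hsp-110 (23.9), and 5 had a peak. The chaperone genes crt-1 and cnx-1, described below, are outside this list and had a sub-threshold summit. Of 24 maternal and RNA regulator genes, 1 had a sub-threshold summit and 4 had a peak. The 1 was mex-1, which encodes a zinc-finger protein of early blastomeres (21.4, 997 bp upstream). Its summit was closer to W03C9.5, at 96 bp upstream. For ribosomal proteins, core histones and maternal regulators fewer listed genes had a sub-threshold summit than a peak, with overlapping intervals of the 2 shares in each.

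In 3 lists more genes had a sub-threshold summit than a peak, each by 3 genes or fewer and with overlapping exact 95% intervals of the 2 shares. Among genes of the ubiquitin ligase list 4 of 133 had a sub-threshold summit and 1 a peak, with skr-21 (26.8), ubc-12 (24.5) and the pair fbxa-103 and fbxb-67 (19.8, 1 region). Among proteasome genes 2 of 21 had a sub-threshold summit and 1 a peak. The 2 were the core particle subunit pas-5 (27.2, 996 bp upstream) and the lid subunit rpn-3 (23.9), which shares its region with hsp-110. The summit counted for pas-5 lay 88 bp inside the snoRNA gene F25H2.15. Among mitochondrial ribosomal protein genes 2 of 30 had a sub-threshold summit and 1 a peak, with mrps-17 (20.2) and mrpl-51 (19.7). Chromatin genes had 3 of each among 52, the sub-threshold ones being swsn-7 (26.5), set-21 (24.6) and swsn-1 (20.97), 2 of them SWI/SNF subunits. Vesicle traffic genes had 2 with a sub-threshold summit and 3 with a peak among 51. The sub-threshold summits lay 686 bp upstream of rab-11.1 (23.8) and 709 bp upstream of rab-7 (21.4). That of rab-7 is the summit also counted for mex-1. Translation factors had 1, eef-2, against 2 with a peak among 27.

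For the other lists the count of listed symbols with a sub-threshold summit was 0. They were lineage transcription factors (0 of 47; 1 had a peak), cell cycle and replication genes (0 of 30; 3), splicing factors (0 of 28; 2), the listed respiratory chain symbols (0 of 27; 0), collagen and moulting genes (0 of 82; 1), the listed fatty acid symbols (0 of 26; 1), cytoskeleton and motor genes (0 of 17; 1), tRNA synthetases (0 of 11; 1) and lin and let genes (0 of 40; 1). Respiratory chain and fatty acid genes were not without such summits, since ndua-1, a complex I subunit gene, and acaa-2, an acyl-CoA thiolase gene (257 bp upstream; 21.7), had one and carry symbols that were not listed. The regions of skn-1, lin-42 and ech-1.2 are introns beyond those windows. With 1.73% of all genes hit, most lists of this size would hold few hits or none.

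A few promoters of genes outside the lists are given next, chosen after their values were seen. The endoplasmic reticulum chaperone gene crt-1, which encodes calreticulin, had a summit 46 bp upstream of its start, with signals of 18.1 in replicate 1 and 11.7 in replicate 2. Its relative cnx-1, which encodes calnexin, had one 223 bp upstream, with 12.2 and 10.02. Summits lay 102 bp upstream of atg-2, 672 bp upstream of atg-3 and 291 bp upstream of atg-18, genes of autophagosome formation. The summit counted for atg-3 was closer to Y55F3AM.9, at 106 bp upstream. The nucleolar gene nol-56, like fib-1 a box C/D snoRNP component, had one 263 bp upstream (21.9). The Groucho corepressor gene unc-37 had one 237 bp upstream, with signals of 11.8 in replicate 1 and 15.6 in replicate 2.

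At the low end of the pooled ranking, the 5 sub-threshold regions with the smallest signal lay in an intron of Y52B11A.3 (16.9), by Y48B6A.18 (16.8), at mir-44, in the coding exon of nhr-119, and in the intron of lsy-22. Those in Y52B11A.3, by Y48B6A.18 and in lsy-22 each overlapped a region of larger signal that matched the same replicate regions.

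Sub-threshold regions were GC-rich at their summits. Their GC intervals lay below those of the thresholded peaks within 50 bp of the summit and for the difference from the flanks, but not in the wider windows. The median GC content within 100 bp of the summit was 45.3% in sub-threshold regions (43.8 to 46.3%; SD over regions 7.06), 46.8% in thresholded peaks (45.8 to 48.3%; SD 6.06), 40.8% in the other candidates of the same rank range and 37.8% in all other candidates. In flanks centred 400 bp to either side the medians were 37.1% for sub-threshold regions, 36.6% for peaks and 35.6% for all other candidates. The difference between summit and flanks had a median of 6.97 percentage points in sub-threshold regions (5.22 to 8.21), 10.7 in thresholded peaks (8.96 to 11.9) and 1.99 in all other candidates. At least 50% GC was found in 24.3% of sub-threshold regions (19.0 to 30.2%), 31.3% of peaks (25.6 to 37.5%) and 4.87% of all other candidates. For this share and for the median within 100 bp, the intervals of sub-threshold regions and peaks overlapped. Within 50 bp of the summit the medians were 45.5% in sub-threshold regions (44.6 to 47.5%) and 49.5% in peaks (48.5 to 51.5%), without overlap of the intervals. Over the whole region as deposited the order turned round. The medians were then 43.5% in sub-threshold regions (42.7 to 44.9%) and 43.2% in peaks (42.1 to 44.1%), with overlapping intervals. Sub-threshold regions ranged from 26.4% GC to 63.2%, the highest being the intron of lin-42.

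**Figure D4:**
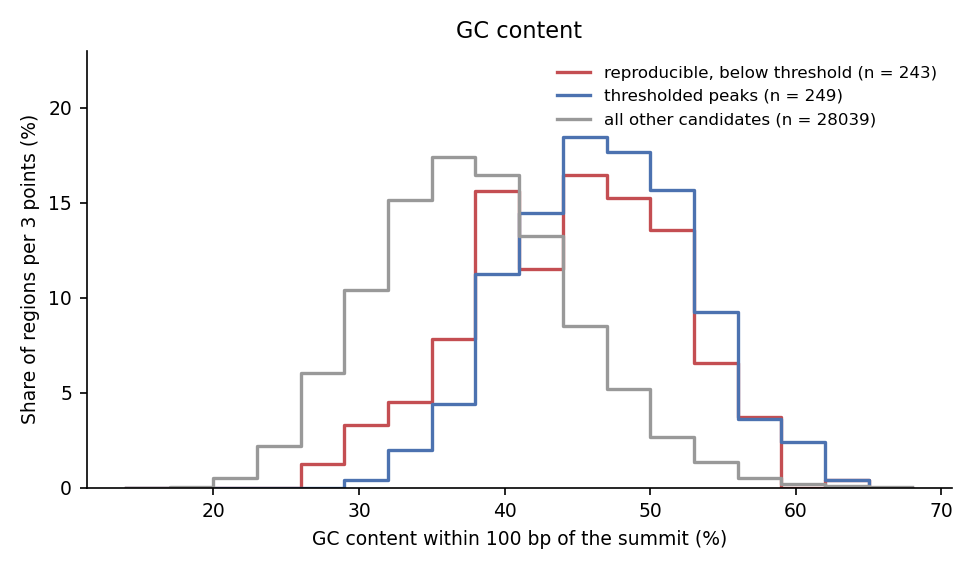
Share of regions (y axis, % per 3 percentage points) by GC content within 100 bp of the summit (x axis, %) for sub-threshold regions (red), thresholded peaks (blue) and all other candidates (grey). Red and blue have medians of 45.3% and 46.8% and both lie right of grey, with a median of 37.8%, while red reaches farther to low GC than blue.

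The GC content of sub-threshold regions differed little by class. The median was 45.3% outside protein-coding genes and small RNA genes (n = 130). It was 44.8% in introns (n = 64), 44.3% in coding exons (n = 35) and 47.0% in small RNA genes (n = 10). Their intervals overlapped. In all other candidates coding exons had the higher median, at 40.3%, against 36.3% outside protein-coding genes and small RNA genes. Intronic summits of sub-threshold regions, at 44.8% (40.3 to 47.8%), were lower than those of thresholded peaks, at 48.8% (46.8 to 50.2%), with overlapping intervals.

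The letters of the sequences shown above were searched on both strands in windows of 201 bp around the summit. CTGCGTCT was in 23 sub-threshold regions (9.47%, 6.09 to 13.9%), 32 thresholded peaks (12.9%, 8.96 to 17.7%) and 2.24% of all other candidates, and in 1.23% of the flanks of the sub-threshold regions. It was in the regions of mir-2215, ipla-3, C25F6.26 in the dlg-1 intron, F42A8.4, F28C10.3, T19E7.26, lin-42, hst-2 and hif-1 among others. In F42A8.4, F28C10.3, H10E21.5 and the second hmr-1 region there were 2 copies. GAGAGAG was in 14.4% of sub-threshold regions, 20.1% of peaks and 4.73% of all other candidates, and in 5.35% of the flanks. GCNNAGNGG, part of the A box of tRNA promoters, was in 12.8% of sub-threshold regions, 18.5% of peaks and 3.20% of all other candidates. GTTCGANNC of the B box was in 5.35% of sub-threshold regions, 10.04% of peaks and 1.98% of all other candidates. In the other candidates of the same rank range the shares were 4.63% for CTGCGTCT, 9.31% for GAGAGAG, 5.68% for GCNNAGNGG and 3.72% for GTTCGANNC.

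GGGCGG separated the 2 sets most among the 19 motifs searched, in percentage points. It was in 7.82% of sub-threshold regions (4.77 to 11.9%), 18.5% of thresholded peaks (13.9 to 23.9%) and 4.27% of all other candidates. AGGTCA, the core letters that many nuclear receptors bind, was in 8.23% of sub-threshold regions, 5.22% of peaks and 5.68% of all other candidates, with overlapping intervals for the first 2, and in 5.56% of the flanks of sub-threshold regions. TTTTTTTT was in 6.58% of sub-threshold regions, 9.64% of peaks and 16.7% of all other candidates, and TTTCAG, the end of many worm introns, in 18.1% of sub-threshold regions, 12.4% of peaks and 32.7% of all other candidates. The other candidates of the same rank range had 6.89% with GGGCGG, 6.79% with AGGTCA, 11.9% with TTTTTTTT and 26.6% with TTTCAG. GC content also differed between these sets, as given above, and its part in these shares was not tested. A match of letters is a description and not a binding site.

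Pooled rank differed between sub-threshold regions and the other candidates of the band, so the 2 were also set side by side within ranks. Of the 243 regions, 122 had ranks 250 to 500, and 122 other candidates had the same ranks. In this range a start window held 65.6% of the sub-threshold summits (56.4 to 73.9%) and 67.2% of the others (58.1 to 75.4%). Coding exons held 10.7% of the sub-threshold summits and 15.6% of the others, and the median GC content was 46.3% and 44.0%, all with overlapping intervals. CTGCGTCT was in 13.1% of the sub-threshold regions and 10.7% of the others, GAGAGAG in 13.9% and 16.4%, and GCNNAGNGG in 16.4% and 11.5%. At these ranks the intervals of the sub-threshold regions and of the others overlapped for each of these measures. The others missed the rank limit in at least 1 replicate. They could still overlap lower-ranked regions of both replicates, as the candidate at hel-1 did.

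Farther down, the median GC content of the sub-threshold regions was above that of the others at ranks 501 to 1000 without overlap of the intervals, but not in every range. At ranks 501 to 1000 the medians were 46.0% in 72 sub-threshold regions (43.8 to 47.8%) and 42.3% in 422 others (41.3 to 42.8%), and start windows held 58.3% and 54.0%. At ranks 1001 to 1500 start windows held 61.5% of 26 sub-threshold summits (40.6 to 79.8%) and 43.9% of 472 others, and the GC medians were 41.3% in both. At ranks 1501 to 2500 they held 39.1% of 23 sub-threshold summits and 43.7% of 972 others, with GC medians of 43.8% (38.3 to 48.3%) and 39.8%. Over ranks 501 to 2500, GC of at least 50% was found in 22.3% of sub-threshold regions (15.2 to 30.8%) and 9.65% of the others (8.34 to 11.1%). Bodies of small RNA genes there held 6 of 121 sub-threshold summits (4.96%, 1.84 to 10.5%) and 24 of 1866 others (1.29%, 0.826 to 1.91%). These intervals overlapped, and at ranks 250 to 500 the counts were 4 of 122 and 5 of 122.

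**Figure D5:**
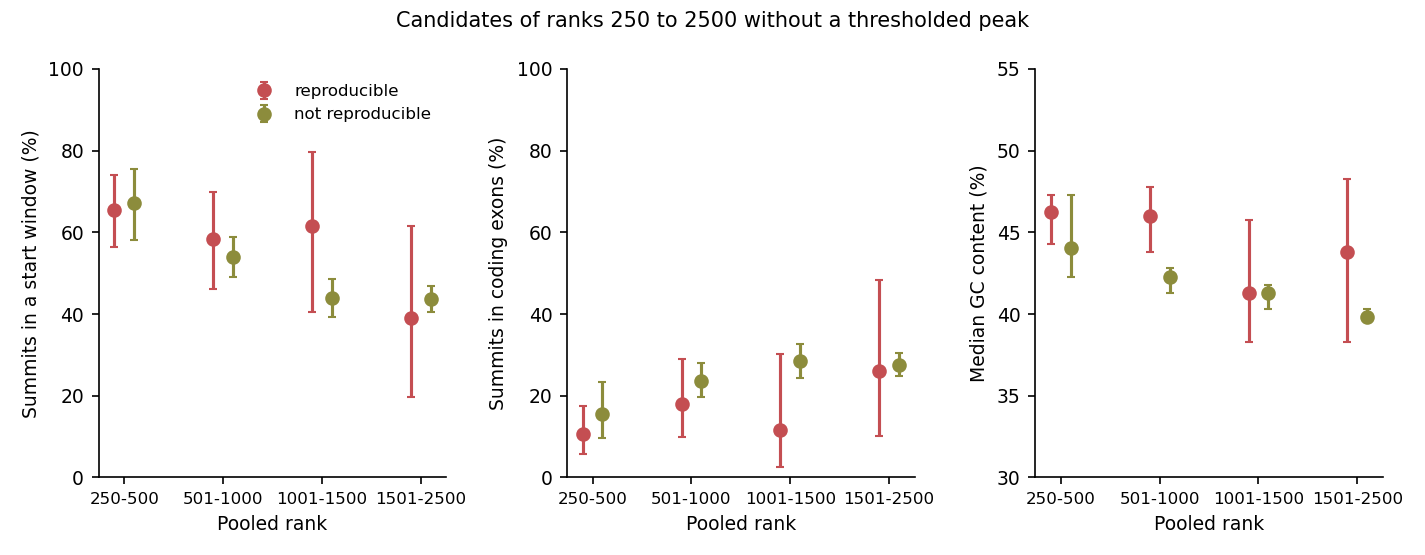
Share of summits in a start window (left, %), share in coding exons (middle, %) and median GC content (right, %, axis from 30 to 55) in 4 ranges of pooled rank, for sub-threshold regions (red) and the other candidates of the same ranks without a peak (olive), with exact 95% intervals. At ranks 250 to 500 the 2 groups overlap in all 3 panels, and at ranks 501 to 1000 the GC medians are 46.0% and 42.3%.

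Chromosomes held unequal shares. Chromosome I held 59 sub-threshold regions (24.3%, 19.0 to 30.2%), against 16.1% of thresholded peaks and 16.4% of all other candidates. Chromosome V held 18 (7.41%, 4.45 to 11.5%), against 12.4% of peaks and 17.8% of all other candidates. Chromosome X held 21.4% of sub-threshold regions, 24.5% of peaks and 18.8% of all other candidates. At ranks 250 to 500 chromosome V held 5 of 122 sub-threshold regions (4.10%, 1.34 to 9.31%) and 19 of 122 others (15.6%, 9.64 to 23.2%). Chromosome I held 29.5% of the sub-threshold regions and 18.9% of the others at these ranks, with overlapping intervals. At ranks 501 to 2500 chromosome V held 10.7% of sub-threshold regions (5.85 to 17.7%) and 15.0% of the others (13.4 to 16.7%). There chromosome I held 19.0% and 17.8%. For both chromosomes the intervals overlapped in that range. The central of 3 equal parts of the chromosomes held 33.7% of sub-threshold summits, 41.0% of peak summits and 35.9% of those of all other candidates.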

How the data were processed

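The authors deposited region lists in narrowPeak format for ce11 and ce10. Each was called against a control, on each replicate (30000 regions each) and on both pooled. A thresholded list was derived from them by IDR, according to the deposited description files. Column 7 is the signal of the authors' peak caller, on a scale not stated. Column 9 is by the format −log10 of the q-value, as deposited, and is capped at 2.61 in the pooled list. Aligner, caller and IDR threshold are not given in the sources used here. Since the lists hold no read counts, depth is unknown.

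Regions were ranked by signal with Python 3.11.15, pandas 2.3.3, numpy 2.4.6 and scipy 1.17.1. Overlap was at least 1 bp, and of several overlapping replicate regions the best-ranked was taken. Genes came from Ensembl release 115 for WBcel235 (46890 genes), sequence from the RefSeq copy of that assembly, which is the assembly named ce11. Coordinates are 1-based. Each summit was put in 1 class, with small RNA genes before coding exons, UTRs and introns. Shares carry exact Clopper-Pearson 95% intervals, and medians exact order-statistic intervals at 95%. No p-value was computed, because the series has 1 group of 2 replicates and the regions were selected on signal.

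The regions, the 20 gene lists by symbol, the biotypes and the 19 motifs were chosen with earlier results of these data known. Named genes were the nearest starts to the 25 regions of largest and the 5 of smallest pooled signal, the 10 with the best worse rank, up to 3 genes by signal from each list, nhr-12, unc-119 and genes with both a peak and a sub-threshold summit. The others were chosen after their values were seen. The values by rank range for motifs and chromosomes and the summit distances between replicates were also added after seeing the data. The code was tested on simulated lists.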

Additional observations from a re-analysis of the deposited data

How the results depend on the processing

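Of 42 values recomputed under 14 settings, 25 moved by no more than the interval of the value reported, or by no more than 1.5 times for the number of regions. The number of sub-threshold regions was 66 with a replicate rank limit of 1000 and 537 with a limit of 5000, against 243, and 237 on the ce10 lists. The start-window share was 48.6% with a window of 500 bp upstream to 100 bp downstream and 78.2% with 2000 bp upstream to 500 bp downstream, where peaks had 70.7% and 86.7%, and 37.4% with protein-coding starts only. The median GC content was 43.3% with a replicate rank limit of 5000 and 43.5% over the whole region. Requiring only 1 replicate, and so leaving out the other in turn, gave 796 to 1031 regions. It gave start-window shares of 51.5 to 52.3%, coding-exon shares of 22.5 to 23.6% and median GC contents of 41.8 to 42.8%. Shares outside protein-coding genes and small RNA genes were 44.3 to 45.1%. No paired analysis was possible because the series has 1 group. Unknown depth limits what the signal of 1 region can show, and all intervals cover the counting of regions only.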
